A study of Homo sapiens with 20 samples.

Results

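Ribosome footprints of K562 cells lacking NAT10 were set against those of the parental line. The Ribo-seq count files of the series were used, 4 of its 20 samples, with 2 libraries from NAT10 knockout cells and 2 from wild type cells. K562 is a human erythroleukaemia line that carries the BCR-ABL1 fusion and expresses embryonic and fetal globins. The knockout cells had lost exon 5 of NAT10 by CRISPR-Cas9 deletion, and wild type here means the parental K562 cells. Both lines were grown in the same medium with serum and were given cycloheximide for 15 minutes before lysis, and ribosome fractions were taken from sucrose gradients. Neither whether the knockout line is 1 clone nor whether the replicates came from different cultures is given in the labels, so a p-value here reflects the spread of these 4 libraries alone and that spread may be technical.

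A footprint is the piece of mRNA that a ribosome shields from nuclease, so the footprints counted on a gene follow both how much mRNA it has and how densely ribosomes sit on it. NAT10 is an acetyltransferase that modifies cytidine to N4-acetylcytidine in ribosomal RNA, transfer RNA and mRNA, and it is needed for processing of the small ribosomal subunit RNA. Cycloheximide stops ribosomes on the message, and footprints are short, which makes them hard to place on genes with near-identical copies.

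The libraries were shallow. The knockout libraries held 1173526 and 621287 footprints on protein-coding genes, and the wild type libraries held 1220308 and 911336. At least 10 footprints fell on 8902 and 7658 genes in the knockout libraries, against 8882 and 8399 genes in the wild type libraries, and 6735 of the 20401 gene identifiers had none in any library. The 10 genes with most footprints took between 4.74% and 5.42% of each library. Erythroid genes that define the line were present in every library: the summed level of 11 of them was 8007 and 6822 CPM (counts scaled to library size) in knockout cells, against 4066 and 3720 CPM in wild type. Of this sum the embryonic globin HBE1 gave 5552 and 4424 CPM in knockout cells, against 1937 and 1465 CPM in wild type, and the other 10 gave 2455 and 2398 CPM in knockout cells, against 2128 and 2255 CPM in wild type. BCR and ABL1 together gave 333 and 359 CPM in knockout against 344 and 358 CPM in wild type. PF4, CD14, MS4A1 and DCN, markers of platelets, monocytes, B cells and fibroblasts, had 0 counts in all 4 libraries. A count of 0 allows a true value of up to 3 counts in a library, from counting error only.

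Replicates of a genotype were closer to each other than to the other genotype, but not as close as counting alone would give. The chi-square statistic over genes with at least 20 summed counts was 2.38 per degree of freedom between the knockout libraries and 2.56 between the wild type libraries, where counting noise gives about 1, and it was 4.39 to 6.42 between libraries of different genotypes. The log2 ratio of the 2 knockout libraries had an SD of 0.77 over genes with a mean under 20 counts and 0.24 over genes with 500 or more. The same SD in wild type was 0.84 and 0.34. Counting error alone accounts for an SD of 0.68 in knockout cells, against 0.62 in wild type in the lowest class, and for 0.08 and 0.07 in the highest. The size of change that could pass the test followed this spread: the smallest log2 fold change called was 1.42 below 20 counts, 0.72 between 50 and 100 counts and 0.34 at 500 counts or more. Genes called made up 2.87% of the lowest class and 10.3% of the highest, so poorly counted genes that did not pass are undecided at this depth.

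**Figure D1:**
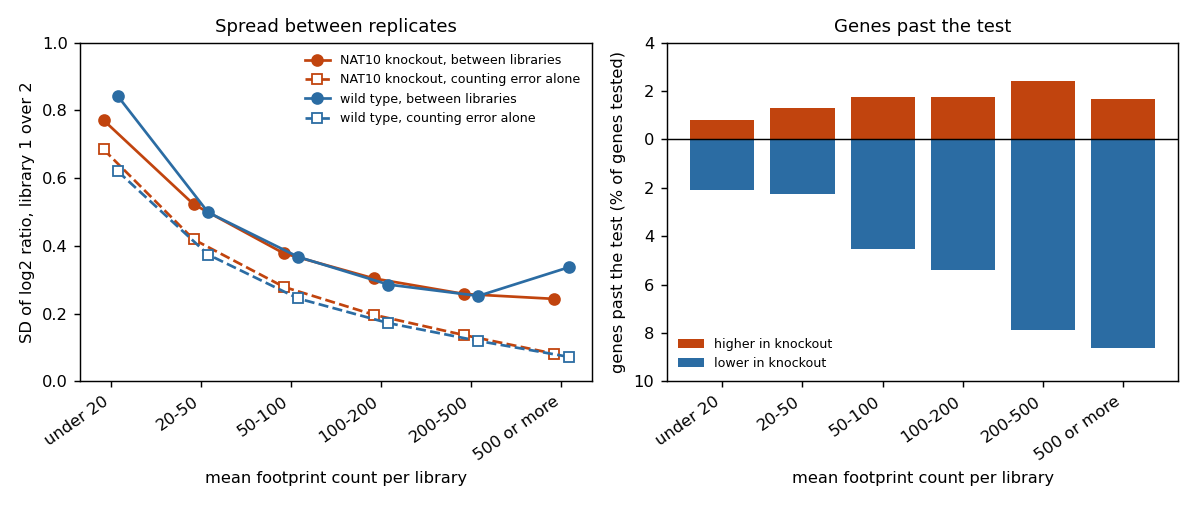
Left, SD across genes of the log2 ratio between the 2 libraries of a genotype, by mean footprint count per library, for knockout (orange) and wild type (blue), with the SD that counting error alone gives (open squares). Right, percent of tested genes called higher (up) or lower (down) in knockout in each class. The replicate spread narrowed to 0.26 in knockout cells, against 0.25 in wild type at 200 to 500 counts, and was 0.24 in knockout cells, against 0.34 in wild type at 500 or more.

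Many more genes lost footprints than gained them. Of 8887 genes tested, 475 (5.34%) differed at an adjusted p under 0.05 by edgeR's quasi-likelihood test: 131 were higher in knockout (1.47%) and 344 were lower (3.87%). At an unadjusted p under 0.05 there were 1855. The median log2 fold change, knockout minus wild type here and throughout, was 1.02 among genes called higher and -1.04 among genes called lower. Over all tested genes it was 0.00, a level that the library scaling sets. Rises and falls are thus relative to the bulk of genes, and a shift shared by most of them would not show. Past a 2-fold change were 73 of the genes that rose and 189 of those that fell. In none of the 475 did the genotypes overlap, which was also true of 51.4% of all tested genes. With each library left out in turn, 156 of the 475 were called every time, 24 of the rises (18.3%) and 132 of the falls (38.4%). Leaving out the first wild type library brought the count to 264, with 55 rises and 209 falls. In these bulk samples a change in the number of cells of a kind and a change per cell cannot be told apart.

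**Figure D2:**
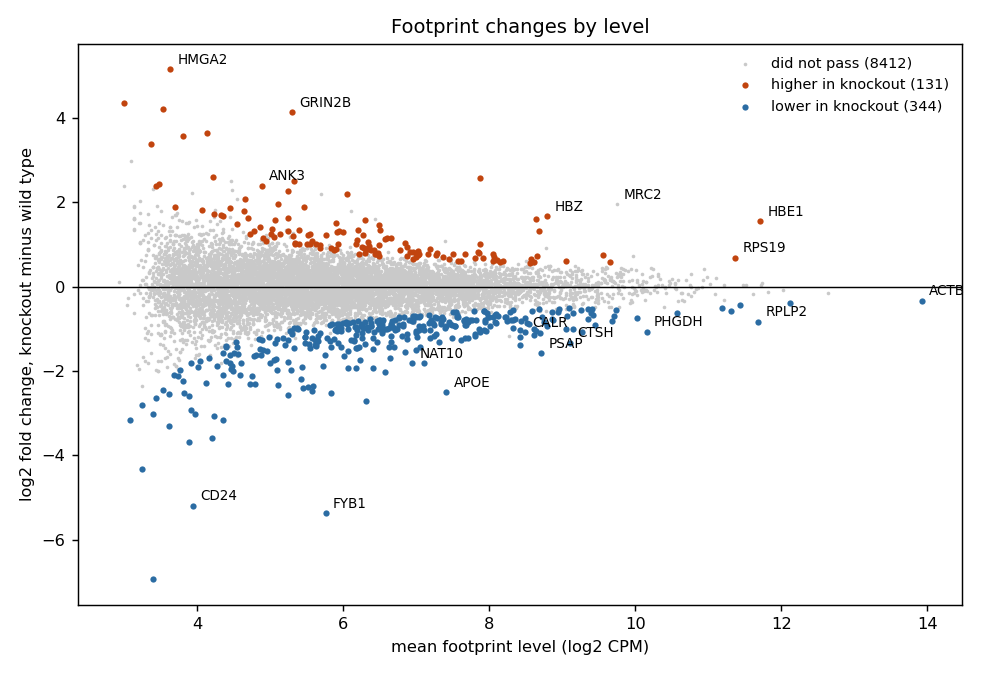
Log2 fold change of footprints (knockout minus wild type) against mean level (log2 CPM) for 8887 tested genes. Genes higher in knockout are orange (131), genes lower are blue (344) and the rest are grey. The falls outnumber the rises at every level, and the changes that passed narrow as the level grows.

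NAT10 itself had 65 and 30 footprints in the knockout libraries and 215 and 171 in the wild type libraries, or 55.3 and 48.3 CPM against 180 and 192 CPM. Both knockout libraries lay below both wild type libraries, and the log2 fold change was -1.82 (SE 0.19, edgeR adjusted p = 0.000334). Counts cover the whole gene and not exon 5 alone, so the footprints that remained do not measure intact protein.

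The deepest falls included genes that blood cells use to signal and to move. FYB1, an adaptor that links T-cell and integrin receptors to actin, had 4 and 0 footprints in knockout, against 131 and 74 in wild type. Its log2 fold change was -5.38 (SE 0.46, edgeR adjusted p = 0.000218), and it was called with any library left out. CD24, a small glycosylphosphatidylinositol-anchored surface protein, had 1 and 0 footprints in knockout cells, against 22 and 29 in wild type, a ratio of summed footprints of 42.9 in favour of wild type (95% interval 7.37 to 1729, counting error only). CCR4, a chemokine receptor, had 3 and 0 in knockout cells, against 25 and 22 in wild type, a ratio of 13.2 in favour of wild type (4.25 to 66.3).

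PTGS1, the platelet cyclooxygenase, had 2 and 2 footprints in knockout cells, against 37 and 23 in wild type (log2 fold change -3.60, SE 0.52). VSIR, an inhibitory immune checkpoint receptor, had 1 and 5 against 33 and 32 (-3.15, SE 0.59). Neither gene's groups overlapped, and both were called in every fit with a library left out. PRF1, the pore-forming protein of cytotoxic cells, CPVL, a carboxypeptidase, SLC6A19, a neutral amino acid transporter, and BCAM, the Lutheran blood group glycoprotein, also fell, with log2 fold changes of -2.92, -3.01, -2.60 and -2.53, but each lost its call when 1 library was left out: the first wild type library for PRF1 and CPVL, either wild type library for BCAM, and the first knockout or the second wild type library for SLC6A19. CYB5R2, a cytochrome b5 reductase, was the 1 called gene with no footprint in either knockout library (21 and 12 in wild type), and it is named here after its values were seen.

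Among actin adaptors of blood cells only falls were called, where 3.87% of all tested genes were lower. Log2 fold changes were negative for 12 of the tested adaptors and positive for 4, and 9 had an edgeR unadjusted p under 0.05. Of 16 tested members of a list of such adaptors, 6 fell and none rose, with a median of -0.39, and all 6 stayed called with any 1 library left out. Besides FYB1 these were WAS, the Wiskott-Aldrich protein that starts actin branching, with 6 and 0 footprints in knockout cells, against 36 and 24 in wild type (-3.08, SE 0.58), and CORO1A, an actin-binding coronin, with 16 and 2 against 74 and 50 (-2.58, SE 0.38). ARHGDIB, which holds small GTPases inactive, had 13 and 11 footprints in knockout cells, against 82 and 65 in wild type (-2.38, SE 0.29). The other falls were DOCK2, an activator of Rac (-1.64, SE 0.25), and VAV1, an exchange factor for small GTPases (-1.45, SE 0.25). RHOG, itself a small GTPase and not on the list, had 111 and 114 CPM in knockout cells, against 275 and 269 CPM in wild type (-1.28, SE 0.16).

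Some markers of other blood lineages fell. Of 7 tested granulocyte and monocyte markers 3 fell, with a median of -1.43: CD33, a sialic acid-binding lectin, FCGR2A, an Fc receptor, and LYZ, lysozyme. CD33 had 28 and 16 footprints in knockout cells, against 97 and 63 in wild type (-1.63, SE 0.25), with no overlap. LYZ had 12 and 1 against 30 and 25 and was called only with all 4 libraries or without the first knockout library. The number of falls in this list was 6 without the first knockout library and 2 without the first wild type library, beside the 3.87% of all tested genes that were lower. CEBPA, a myeloid transcription factor (0.10, SE 0.57), and the 2 tested lymphocyte markers did not pass. Of 7 tested megakaryocyte markers 3 fell, with a median of -0.93: PTGS1, GP6, the platelet collagen receptor, and ITGA2B, the platelet integrin subunit. GP6 lost its call without the first knockout library, and without either wild type library. ITGA2B had 16 and 7 footprints in knockout cells, against 58 and 36 in wild type (-1.80, SE 0.32). Without the first knockout or the first wild type library 2 megakaryocyte markers were called lower, and DESeq2 called 0 of 5. PF4 and CD14 had 0 counts in all libraries and MPO had 1 count in 1 knockout library. The summed level of 6 granulocyte and monocyte markers was 76.6 and 54.8 CPM in knockout cells, against 207 and 158 CPM in wild type, and that of 4 megakaryocyte markers was 375 and 459 CPM in knockout against 599 and 727 CPM in wild type. GP1BB alone, a subunit of a platelet adhesion receptor, gave 313 and 395 CPM in knockout cells, against 460 and 587 CPM in wild type. It did not pass (edgeR adjusted p = 0.0701), and it had 0 RNA counts in all 4 libraries. Lymphocyte markers summed to 9.37 and 6.44 CPM in knockout cells, against 2.51 and 6.73 CPM in wild type, and fibroblast and epithelial markers, nearly all of it keratins and EPCAM, to 540 and 531 CPM in knockout cells, against 767 and 720 CPM in wild type. The part of other cell kinds in these falls was not tested.

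The well-counted falls of lowest p are described next. PSAP, the precursor of the saposins that activate lysosomal lipid hydrolases, had 226 and 185 CPM in knockout cells, against 597 and 651 CPM in wild type. Its log2 fold change was -1.59 (SE 0.15, edgeR adjusted p = 0.00032), with no overlap. CTSH, the lysosomal cysteine protease cathepsin H, had 343 and 277 CPM in knockout against 749 and 822 CPM in wild type (-1.33, SE 0.15). SPN, the sialoglycoprotein CD43 of blood cells, had 221 and 185 CPM in knockout against 476 and 471 CPM in wild type (-1.21, SE 0.15).

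Among these falls were 2 metabolic enzymes. PHGDH, the first enzyme of serine synthesis, had 738 and 730 CPM in knockout cells, against 1540 and 1541 CPM in wild type (-1.07, SE 0.12). Replicates of a genotype lay close together for this gene, far from the other genotype. FDXR, the mitochondrial ferredoxin reductase, had 181 and 193 CPM in knockout against 440 and 539 CPM in wild type (-1.39, SE 0.16). LAPTM4B, a late endosomal membrane protein, fell by 1.08 (SE 0.14) and BHLHE40, a transcriptional repressor, fell by 1.10 (SE 0.14). All of these well-counted falls were called with any library left out.

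**Figure D3:**
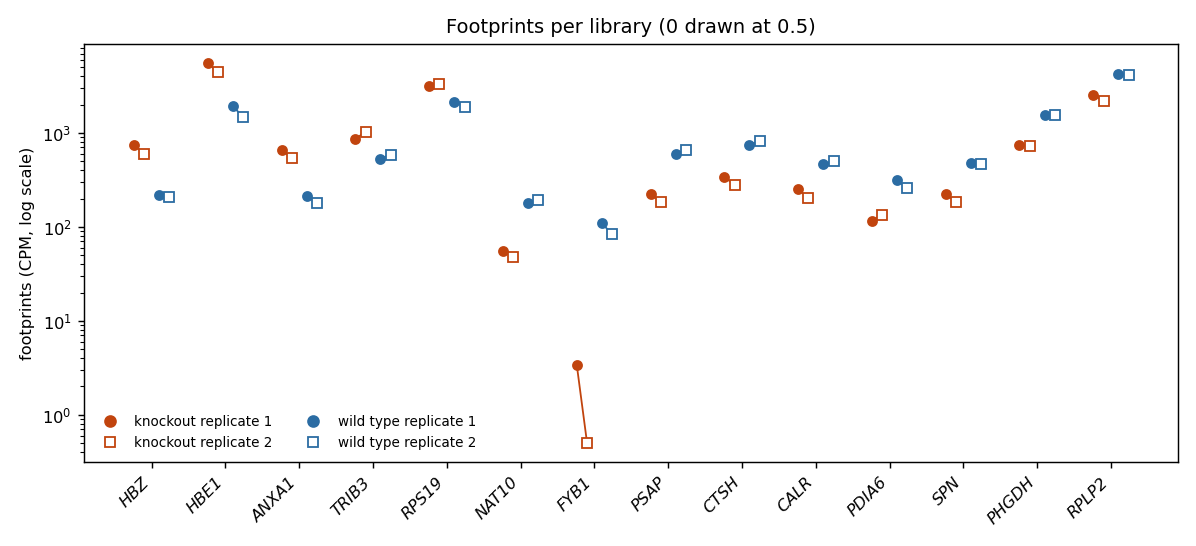
Footprints (CPM, log scale) of 14 genes in each library: knockout left (orange) and wild type right (blue), replicate 1 as filled circles and replicate 2 as open squares, joined by a line. FYB1 had 3.41 CPM in one knockout library and 0, drawn at 0.5, in the other, against 110 and 83.0 CPM in wild type. HBE1 lay at 5552 and 4424 CPM in knockout, above its 1937 and 1465 CPM in wild type.

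Ranked by p instead, the gene at the top was APOE, the lipid-carrying apolipoprotein, which like the other genes of this paragraph was picked after its values were seen. It had 57.9 and 37.0 CPM in knockout, with 68 and 23 footprints, against 329 and 256 footprints in wild type (-2.50, SE 0.20). Of the 20 genes with the lowest p, 17 fell. Secreted proteins among them were MFGE8, which bridges dying cells to phagocytes (-1.92, SE 0.22), ECM1, an extracellular matrix protein (-2.40, SE 0.29), IGFBP4, which binds insulin-like growth factors (-2.48, SE 0.30), and SERPINF1, a serpin (-1.92, SE 0.24). All 20 were called with any library left out.

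Among lysosomal genes no rise was called. Of 51 tested genes for lysosomal enzymes, their activators and the proton pump (V-ATPase), 18 fell and none rose. Their median was -0.52 against 0.00 over all tested genes, of which 3.87% were lower. Of these 18, 5 were called with any library left out, and the number of falls was 9 without the first wild type library, 9 without the second, and 6 by DESeq2. DESeq2 gave an adjusted p for only 41 genes of this list. ATP6AP1, an accessory subunit of the pump, had 38 and 21 footprints in knockout cells, against 143 and 88 in wild type (-1.73, SE 0.23). GRN, the precursor of the granulins, had 81 and 24 against 200 and 147 (-1.55, SE 0.23). The other falls were hydrolases such as CTSB, GLB1, GAA and TPP1, the thioesterase PPT1, and the pump subunits ATP6V0A1, ATP6V0B, ATP6V0C and ATP6AP2, which fell by 0.72 to 1.45 together with CTSC, CTSZ and GUSB. In sum the list took 0.467% and 0.432% of footprints in knockout, against 0.646% and 0.652% in wild type.

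Genes of the protein-folding machinery of the endoplasmic reticulum (ER) also fell without a called rise. This set of chaperones and oxidoreductases folds secreted and membrane proteins, and cells are known to raise it through the unfolded protein response when misfolded protein builds up in the ER. Of 37 tested genes 15 fell and none rose, with a median of -0.79, beside the 3.87% of all tested genes that were lower. DESeq2 called 10 of 26 lower. The knockout libraries gave the 42 listed genes 0.295% and 0.284% of their footprints, against 0.478% and 0.472% in wild type, and 33 of the 37 tested log2 fold changes were negative. Without the first wild type library 9 of the 37 were called lower.

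Promoters are shown for 4 of the falling ER genes, because their best-known shared feature is the ER stress element, CCAAT and CCACG with 9 bases of any kind between them. The element was looked for on both strands in the 250 bases before the start of each gene in RefSeq's GRCh38.p14 promoters, of which 7371 belonged to tested genes. It was present in 10 of these (0.136%). Of 35 ER genes with a promoter to search 6 had it (17.1%), among them 4 of the 14 that fell (28.6%). The element was chosen as a known feature of such genes, so these shares do not test a link between it and the falls. Capitals mark the element, the strand is that of the gene, and in CALR the element reads on the opposite strand. In HSP90B1 the one shown is the farther of 2.
CALR, chr19:12938359-12938432, plus strand: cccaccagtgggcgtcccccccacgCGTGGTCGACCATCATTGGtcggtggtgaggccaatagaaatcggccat
CANX, chr5:179698748-179698826, plus strand: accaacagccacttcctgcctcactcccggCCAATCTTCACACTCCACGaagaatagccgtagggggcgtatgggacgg
HSP90B1, chr12:103930186-103930264, plus strand: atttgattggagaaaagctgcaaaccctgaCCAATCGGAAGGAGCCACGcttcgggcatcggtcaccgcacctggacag
HSPA5, chr9:125241361-125241439, minus strand: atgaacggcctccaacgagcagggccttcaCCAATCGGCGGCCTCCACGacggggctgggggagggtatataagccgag
The matches describe these sequences, and no binding was measured in these libraries.

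HSPA5, the Hsp70 chaperone of the ER also called BiP, had 123 and 96.6 CPM in knockout cells, against 205 and 206 CPM in wild type (-0.88, SE 0.17, edgeR adjusted p = 0.0133). CALR, a lectin chaperone for glycoproteins, had 250 and 203 CPM in knockout cells, against 468 and 500 CPM in wild type (-1.08, SE 0.16). CANX, its membrane-bound relative, had 181 and 140 CPM in knockout cells, against 303 and 259 CPM in wild type (-0.79, SE 0.17). HSP90B1, the Hsp90 of the ER, had 151 and 138 CPM in knockout cells, against 247 and 255 CPM in wild type (-0.79, SE 0.16). The genotypes did not overlap in any of the 4, but CANX and HSP90B1 lost their calls without the first wild type library.

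Protein disulfide isomerases, which form and rearrange disulfide bonds, fell to a similar extent. PDIA6 had 117 and 134 CPM in knockout cells, against 312 and 260 CPM in wild type (-1.21, SE 0.17). PDIA4 fell by 1.11 (SE 0.18), P4HB by 0.98 (SE 0.15) and PDIA3 by 1.24 (SE 0.24), a call lost without the first wild type library. PPIB, a prolyl isomerase of the ER, fell by 0.86 (SE 0.16), and ATF6B, a membrane-bound transcription factor related to ATF6, fell by 1.04 (SE 0.17). XBP1, ATF6, ERN1 and HERPUD1, which take part in the unfolded protein response and were picked after their values were seen, did not pass the test: the log2 fold change was -0.16 for XBP1, -0.24 for ATF6, -0.13 for ERN1 (which encodes IRE1) and -0.08 for HERPUD1. DNAJC10, an ER reductase, had the highest value of the list, 1.13, and did not pass either.

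Falls were also called among genes that bring proteins into the ER and add sugars. Of 44 tested, 7 fell and none rose, with a median of -0.24, beside the 3.87% of all tested genes that were lower. The falls were 4 without the first wild type library and 4 by DESeq2, and 1 rise was called without the second knockout library. DESeq2 gave an adjusted p for 41 of these genes. PRKCSH, the regulatory subunit of glucosidase II, had 125 and 145 CPM in knockout cells, against 329 and 278 CPM in wild type (-1.18, SE 0.17). GANAB, the catalytic subunit of the same enzyme, had 331 and 266 CPM in knockout cells, against 605 and 554 CPM in wild type (-0.95, SE 0.15), and RPN2, a subunit of the oligosaccharyl transferase, fell by 1.03 (SE 0.15). All 3 were called with any library left out. None of 39 tested cytosolic chaperones passed the test, beside 5.34% of all tested genes, and their median was 0.12. Of these, 9 had an edgeR unadjusted p under 0.05, and DESeq2 called 0 of 38. Without the second knockout library 5 of them were called higher, without the first 1 higher and 1 lower, and with the replicate block 9 higher and 1 lower.

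Surface adhesion proteins and antigen presentation showed a few strong falls, where 3.87% of all tested genes were lower. Of 16 tested integrins and adhesion proteins 5 fell and none rose. CD81, a tetraspanin, had 58.7 and 58.0 CPM in knockout cells, against 215 and 199 CPM in wild type (-1.82, SE 0.18). CD151, another tetraspanin, had 34.1 and 19.3 CPM in knockout cells, against 117 and 99.8 CPM in wild type (-1.93, SE 0.26). Of 18 tested genes of the interferon response and antigen presentation 3 fell and none rose: HLA-E, a class I molecule, had 29 and 9 footprints in knockout cells, against 98 and 65 in wild type (-1.89, SE 0.27), IFITM2, an antiviral membrane protein, had 90 and 29 against 243 and 143, and TAPBP, which loads peptides onto class I molecules, fell by 1.30 (SE 0.23).

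**Figure D4:**
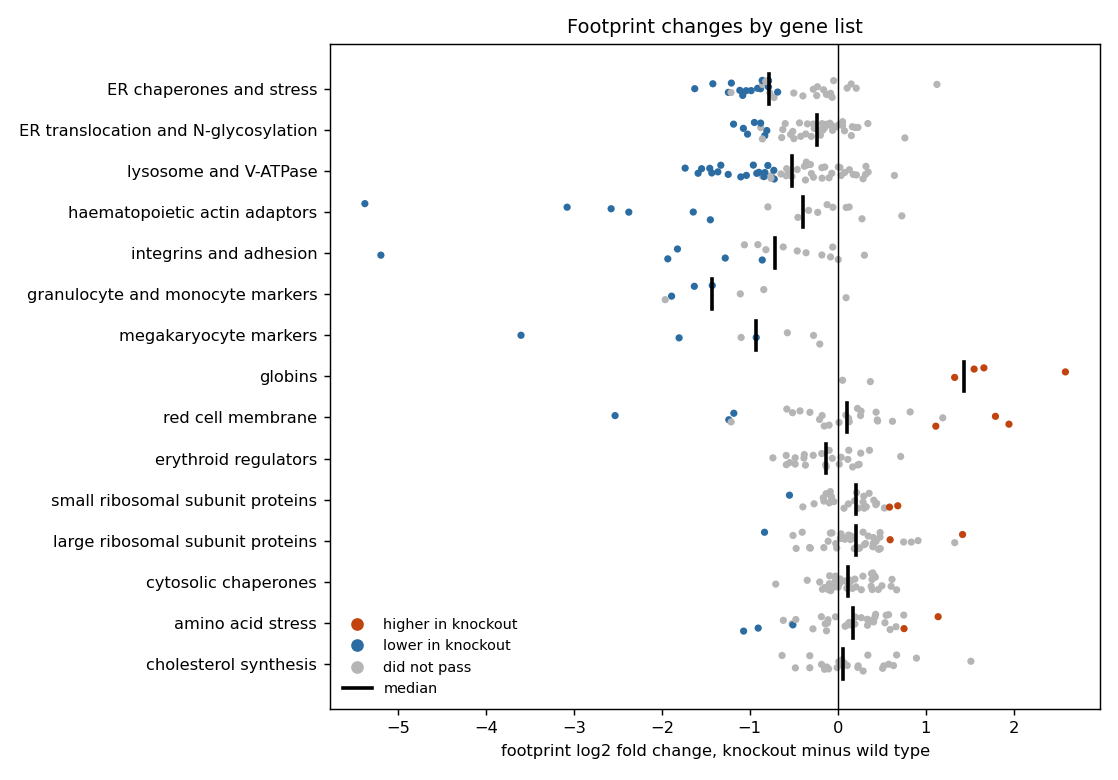
Footprint log2 fold change (knockout minus wild type) of the tested members of 15 gene lists, 1 point a gene, with genes higher in knockout in orange, lower in blue and the rest in grey, and the list's median as a black bar. The ER chaperone and lysosome lists sit left of 0 with medians of -0.79 and -0.52, while all 6 globins, 4 of them called, sit to the right of 0 with a median of 1.44.

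On the rising side, embryonic and fetal globins led. HBZ, the embryonic alpha-type chain, had 746 and 599 CPM in knockout cells, against 216 and 210 CPM in wild type (1.66, SE 0.16, edgeR adjusted p = 0.00032). HBE1, the embryonic beta-type chain, had 5552 and 4424 CPM in knockout cells, against 1937 and 1465 CPM in wild type (1.55, SE 0.15). HBG1, a fetal chain, had 135 and 121 CPM in knockout cells, against 52.8 and 49.3 CPM in wild type (1.33, SE 0.20), and HBD, the minor adult chain, had 32 and 21 footprints against 2 and 8 (2.59, SE 0.53). The genotypes did not overlap in these 4, and HBD lost its call without the first wild type library. HBG2 (0.37, SE 0.19) and HBQ1 (0.06, SE 0.16) did not pass, and since HBG1 and HBG2 are nearly identical, how footprints were divided between them is uncertain. In RNA, HBE1 had a log2 fold change of 0.58 (SE 0.52) and did not pass, on only 37 and 48 RNA counts in knockout cells, against 25 and 10 in wild type. Footprints of HBE1 numbered 6521 and 2747 in knockout cells, against 2311 and 1306 in wild type, far above its RNA counts. The reason for this mismatch was not tested. HBZ had 4386 and 4579 RNA counts in knockout cells, against 601 and 755 in wild type. The listed globins took 0.691% and 0.556% of footprints in knockout, against 0.252% and 0.202% in wild type.

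Other erythroid genes did not move as one. Of 28 tested genes of the red cell membrane 3 rose and 3 fell, beside the 5.34% of all tested genes that were called. GYPB, a glycophorin, had 65 and 31 footprints in knockout cells, against 8 and 20 in wild type (1.95, SE 0.40), and GYPE had 43 and 23 against 14 and 8 (1.79, SE 0.34). GYPB lost its call without the first wild type library. GYPB and GYPE are close copies of each other, so their footprints may be shared. BCAM, STOM, the membrane protein stomatin (-1.24, SE 0.19), and CD55, which protects cells from complement (-1.18, SE 0.20), fell. None of 25 tested erythroid regulators passed the edgeR test, with a median of -0.13. Of these, 6 had an unadjusted p under 0.05, and DESeq2 called 0 of 21. Without the second knockout library 3 of them, GATA1 among them, were called lower, without the first 1 was called higher, and with the replicate block 1 was called higher and 5 lower. GATA1, the master erythroid transcription factor, had 639 and 681 CPM in knockout cells, against 855 and 990 CPM in wild type (-0.48, SE 0.13, edgeR adjusted p = 0.0588), and KLF1 had 330 and 406 CPM in knockout cells, against 452 and 504 CPM in wild type (-0.38, SE 0.15). TFRC, the transferrin receptor, was 175 and 153 CPM in knockout cells, against 196 and 176 CPM in wild type (-0.17, SE 0.16).

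Outside the globins, ANXA1, a phospholipid-binding annexin, rose most clearly, with 662 and 538 CPM in knockout cells, against 212 and 182 CPM in wild type (1.61, SE 0.16). RHOXF2, a homeobox protein of the germ line, had 152 and 121 CPM in knockout against 57.8 and 67.3 CPM in wild type (1.15, SE 0.20). ATP5MF, a subunit of ATP synthase, had 311 and 314 CPM in knockout cells, against 179 and 130 CPM in wild type (1.01, SE 0.18). TRIB3, a pseudokinase induced by amino acid and ER stress, had 871 and 1019 CPM in knockout cells, against 533 and 585 CPM in wild type (0.75, SE 0.14), and lost its call without the first wild type library. Of 34 tested genes of the amino acid stress response 2 rose and 3 fell, beside the 5.34% of all tested genes that were called. The rises were TRIB3 and CTH, which makes cysteine (1.14, SE 0.23). The falls were PHGDH, SLC1A5, a glutamine carrier (-0.90, SE 0.13), and SLC3A2, the heavy chain of amino acid exchangers (-0.51, SE 0.13). CTH lost its call without the second wild type library, and SLC3A2 with any 1 library left out.

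Genes with few footprints in wild type also appeared among the rises. HMGA2, a chromatin protein of fetal cells, had 27 and 12 footprints in knockout cells, against 0 and 1 in wild type, a ratio of summed footprints of 46.3 (95% interval 7.84 to 1876, counting error only). IGF1, a growth factor, had 70 and 31 in knockout cells, against 20 and 17 in wild type (1.64, SE 0.27). PCDH10, a protocadherin, had 19 and 10 against 2 and 1, a ratio of 11.5 (3.56 to 58.9). ANK3, an ankyrin, had 59 and 28 in knockout cells, against 13 and 6 in wild type (2.39, SE 0.34), FAT1, a giant cadherin, had 57 and 51 against 16 and 11 (2.26, SE 0.34), and MAGEB2, a cancer-testis antigen, had 93 and 33 against 18 and 20 (1.89, SE 0.30). ANK3, FAT1, MAGEB2 and IGF1 were called with any library left out. Without the first knockout library HMGA2 had too few counts to be tested. PCDH10 had no call without the first library of either genotype.

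Several of the largest rises had footprints but almost no RNA. The RNA-seq libraries of the same lines held 10388717 to 18778485 counts each. GRIN2B, a glutamate receptor subunit of neurons, had 19 and 101 footprints in knockout cells, against 4 and 5 in wild type (4.14, SE 0.99), yet 2 and 1 RNA counts in knockout cells, against 2 and 1 in wild type. ISLR, a secreted leucine-rich repeat protein, had 20 and 33 footprints against 0 and 5 (3.65, SE 0.83), with 0 and 1 RNA counts in knockout cells, against 1 and 1 in wild type. HES7, a transcriptional repressor of somite formation, had 74 and 46 footprints in knockout against 1 and 23 in wild type (2.50, SE 0.58), with 1 and 3 RNA counts in knockout against 5 and 2 in wild type. PCDHB3, a clustered protocadherin (3.57, SE 0.85), and KIF26A, a kinesin-like protein (2.08, SE 0.54), were of the same kind. These 5 of the 12 largest rises were too low in RNA to be tested there. Of the others 5 passed the RNA test in the same direction. The 2 that did not pass it were KIAA2013 (footprints 2.57, RNA -0.21) and PHKG2 (footprints 2.20, RNA -0.06). All 12 of the largest falls passed the RNA test in the same direction. GRIN2B and PCDHB3 lost their call without the second knockout or the first wild type library, and ISLR and KIF26A without the first wild type library. With only genes tested in RNA kept, an alternative chosen after seeing the data, 486 genes were called, 136 higher and 350 lower.

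Replicates disagreed on a few genes far beyond the usual spread. MRC2, a collagen receptor, had 1306 and 1014 footprints in knockout but 53 and 605 in wild type, so that 1 wild type library stood apart from the other 3; its log2 fold change of 1.95 (SE 0.68) did not pass (edgeR adjusted p = 0.121). For the developmental transcription factors EN1 and FOXF2 and the testis splicing factor RBMXL2 the wild type libraries also lay far apart: EN1 had 80 and 57 footprints in knockout cells, against 8 and 77 in wild type, FOXF2 had 64 and 29 against 19 and 135, and RBMXL2 had 274 and 90 against 56 and 371. For FOXF2 and RBMXL2 both knockout counts lay between those of the wild type libraries. In knockout, KIAA2013, an uncharacterised membrane protein, had 138 and 457 footprints (48 and 91 in wild type), NKX3-2, a homeobox factor, had 71 and 137 (26 and 61 in wild type), and EEF1A1, the elongation factor that brings transfer RNA to the ribosome, had 131 and 16 (117 and 49 in wild type). EEF1A1 had 43573 to 66295 RNA counts per library, and it has many near-identical pseudogenes, so its footprint count is uncertain. RNA counts of EN1, FOXF2 and RBMXL2 were between 6 and 23 in every library.

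Most changes in footprints had a counterpart in RNA. Of the 475 genes 466 could be tested in RNA, and 451 of them (96.8%) had an RNA log2 fold change of the same sign, against 71.4% of all genes tested in both. Of the same 466, 365 passed the RNA test in the same direction and none in the opposite one, where 18.5% of genes tested in both passed it. By direction, 111 of 123 rises had the same sign in RNA, with 77 past the test, and 340 of 343 falls, with 288 past the test. The 2 knockout RNA libraries differed by little more than counting noise (chi-square 1.03 per degree of freedom) and were summed as 1 sample, while the wild type RNA pair gave 12.5. For ER chaperones the RNA median was -0.34 beside a footprint median of -0.79, and for lysosomal genes it was -0.27 beside -0.52. The RNA and footprint fits were made separately, and the difference between them was not tested here.

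**Figure D5:**
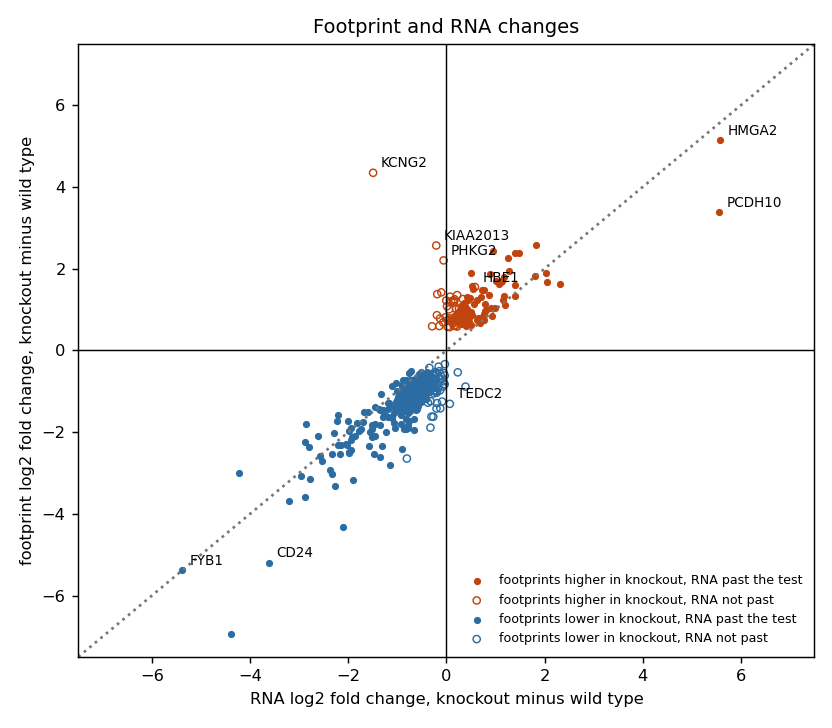
Footprint log2 fold change against RNA log2 fold change (both knockout minus wild type) for the 466 called genes that were also tested in RNA. Orange genes had more footprints in knockout and blue genes fewer, filled points also passed the RNA test, and the dotted line marks equal change. Of the 15 genes with opposite signs, 12 had more footprints in knockout.

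The 15 genes whose RNA had the opposite sign were few and none passed the RNA test. PHKG2, the liver and testis catalytic subunit of phosphorylase kinase, had 92 and 95 footprints in knockout cells, against 29 and 21 in wild type (2.20, SE 0.33), and its RNA log2 fold change was -0.06. TEDC2, a protein of centrioles, had 68 and 33 footprints against 163 and 126 (-1.31, SE 0.19), with 0.07 in RNA. Ribosomal proteins and translation factors stood among the others: RPS19 had 3177 and 3321 CPM in knockout cells, against 2153 and 1891 CPM in wild type (0.68, SE 0.11), with -0.07 in RNA. EEF1B2, an exchange factor of elongation factor 1, had 169 and 143 CPM against 98.9 and 79.6 CPM (0.81, SE 0.19), with -0.02 in RNA. RPS19 and PHKG2 were called with any library left out, and EEF1B2 was not called without the first knockout or the second wild type library.

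Of the ribosomal protein genes tested, 10.7% of the small and 6.67% of the large subunit were called, beside 5.34% of all tested genes. Log2 fold changes were positive for 17 small and 33 large subunit proteins, and negative for 11 and 12. Of 28 tested small subunit proteins 2 rose and 1 fell, with a median of 0.20, and of 45 large subunit proteins 2 rose and 1 fell, with a median of 0.21. Taken pair by pair, a knockout library against a wild type library, these medians were between -0.02 and 0.37 for the small subunit and between -0.06 and 0.45 for the large one. The rises were RPS19, RPS23 (0.59, SE 0.14), RPL35A (0.60, SE 0.13) and RPL41 (1.42, SE 0.38, with 60 and 15 footprints against 17 and 14). RPLP2, an acidic protein of the ribosomal stalk, fell, with 2524 and 2185 CPM in knockout cells, against 4263 and 4126 CPM in wild type (-0.83, SE 0.11), as did RPS13 (-0.55, SE 0.13). RPL41, RPL35A, RPS23 and RPS13 each lost the call when at least 1 library was left out. Without the second knockout library 6 small and 9 large subunit proteins were called higher. With the replicate block 10 small and 13 large subunit proteins were called higher, and 2 and 5 lower. In RNA the median was -0.23 for either subunit.

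Among the genes with most footprints, HBE1 and RPLP2 are described above. ACTB, beta-actin, had 12743 and 14704 CPM in knockout cells, against 17097 and 17562 CPM in wild type (-0.34, SE 0.09, edgeR adjusted p = 0.0482), and it lost this call without either wild type library. EEF2, which moves the ribosome along, had 3653 and 4477 CPM in knockout cells, against 4162 and 4403 CPM in wild type (-0.08, SE 0.12). RPL13 (-0.16, SE 0.10) and the linker histones H1-2 (0.08, SE 0.12) and H1-4 (0.03, SE 0.14) did not pass. H3C2, a replication histone whose copies are nearly identical, fell by 0.40 (SE 0.10) and lost its call without either wild type library. The 13 mitochondrially encoded genes took 0.0344% and 0.0396% of footprints in knockout against 0.0228% and 0.0239% in wild type. None of the 7 tested passed the edgeR test (4 at an unadjusted p under 0.05), and DESeq2 called 0 of 2.

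Called falls were unevenly spread over chromosomes. Of 124 tested genes between NAT10 and the tip of the short arm of chromosome 11, with the beta-globin genes left out, 27 fell and 2 rose, with a median of -0.59, against 21 falls among 404 tested genes on the rest of that chromosome (median -0.07). Gene order was taken from RefSeq's GRCh38.p14. Among genes already described, CD81, CD151, IFITM2, RHOG, RPLP2, RPS13, TPP1 and CYB5R2 lie in that stretch, so both ribosomal protein falls do. Without genes of the stretch, 17 of 50 lysosomal genes fell, 3 of 14 integrins and adhesion proteins and 2 of 15 interferon and antigen presentation genes, and none of the ER chaperone genes lies there. Chromosome 19 had 48 falls (7.42%) and 2 rises among 647 tested genes, with a median of -0.13, beside an RNA median of -0.05. What part the position of a gene has in its change was not tested.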

How the data were processed

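Ribosome footprints were measured by Ribo-seq in 4 libraries. For each protein-coding gene the authors deposited a read count, taken from alignments without duplicate reads, per the file headers. Tools named in the submitters' processing notes, with no roles or versions, include STAR, featureCounts, cutadapt, SAMtools and Trimmomatic, and the build named is GRCh38.p13. No source used here gives the strand setting, so overlapping and antisense genes cannot be told apart. Where duplicates are removed with no molecular identifier, footprints of abundant genes are undercounted, since footprints are short. Footprint totals were 621287 to 1220308 per library. Of 20401 identifiers 20352 had a symbol, and 18 copies on the Y pseudoautosomal region were left out.

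Sample titles gave the group and the replicate number. The test was edgeR 4.0.16 under R 4.3.3 (TMM scaling, filterByExpr, quasi-likelihood F test, Benjamini-Hochberg adjustment over 8887 genes, threshold 0.05). SE is the size of the log2 fold change divided by the square root of the test's F statistic. It is not a standard error given by the fit, and it is approximate for genes with few counts. CPM values are deposited counts scaled to the TMM-adjusted total of the tested genes. Deposited RNA-seq counts were fitted in the same way, with the knockout pair summed as 1 sample, which left 1 residual degree of freedom and assumed that the lone sample varies like wild type. Alternatives were RLE and upper-quartile scaling, no and a stricter count filter, each library left out, a replicate block, thinning to the shallowest library, and DESeq2 1.42.0. The fit was tested on simulated data.

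Named genes were NAT10, the 12 largest rises and falls without overlap and with a mean of at least 20 counts in the higher genotype, the 8 rises and 8 falls of lowest p with at least 50 counts in every library, the 8 genes with most footprints, the 4 lowest-p members of each list, cell type markers, and the 4 genes per genotype whose replicates differed most. Other members of a list are named to fill out its account, and were picked after their values were seen. The 45 gene lists and the libraries described were chosen with earlier results of these data known, so lists carry no test. Some genes that the rule gave are not reported here.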

Additional observations from a re-analysis of the deposited data

How the results depend on the processing

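The 475 calls (131 higher, 344 lower) came to 489 with RLE scaling and 469 with upper-quartile scaling, and to 454 with a stricter filter. With no count filter 889 genes were called (314 higher, 575 lower), and with all libraries thinned to the shallowest 260 (66 higher, 194 lower). DESeq2 called 169 of 6182 tested (25 higher, 144 lower), 168 of them among the 475. Leaving out 1 library gave 264 to 716 calls, 55 to 252 higher and 209 to 464 lower. Fewer samples then set the spread, and shared calls kept their sign in each of these fits.

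Replicate numbers are not said to mark a shared culture or day. The differences between replicates 1 and 2 correlated at r = 0.34 between genotypes across 4346 genes, which are not independent. With a replicate block 1594 genes were called (693 higher, 901 lower), with 1 residual degree of freedom, and all 475 were among them.

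The share of calls with the same sign in RNA, 96.8%, was 90.8% with the replicate block, 87.9% to 95.0% with 1 library left out, 97.0% with the RNA libraries kept apart and 96.4% with DESeq2. Of 117 called genes that the rule for named genes gave, 45 lost their call without the first wild type library, 33 without the second, 16 without the first knockout library, 8 without the second, 32 by DESeq2 and 30 after thinning. By DESeq2 67 of the 117 kept their call, and after thinning 83 did. Genes that neither kept nor lost it had no adjusted p in that fit. FOXF2 and RBMXL2, not called with 4 libraries, had log2 fold changes of -0.63 and -0.21 in that fit. Without the second wild type library these were 1.68 and 2.04, of the opposite sign. Without the first wild type library they were -1.56 and -1.11.

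Depth limits what can be said of poorly counted genes: below 20 counts per library the smallest log2 fold change called was 1.42.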

Other observations

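Counts for functions not described above are given here, beside the 5.34% of all tested genes that were called. Of 71 tested nuclear-encoded genes of the respiratory chain 1 rose, ATP5MF, and 1 fell, NDUFV3, a subunit of complex I, which had 249 and 272 CPM in knockout cells, against 492 and 467 CPM in wild type (log2 fold change -0.89, SE 0.14). Its RNA log2 fold change was -0.07. Of 27 tested citrate cycle genes the only one that passed was IDH2, the mitochondrial isocitrate dehydrogenase, which fell by 1.06 (SE 0.17), to 215 and 306 CPM in knockout against 521 and 548 CPM in wild type. Of 49 tested DNA replication genes 1 fell, ORC1, a subunit of the origin recognition complex (-0.79, SE 0.18), and of 43 tested mitosis genes 1 rose, CDK1, the mitotic kinase (0.64, SE 0.16). ORC1 lost its call without either wild type library. Among the fits with 1 library left out, CDK1 stayed called only without the second knockout library. Among 58 tested splicing factors and nuclear ribonucleoproteins TRA2A, a splicing activator, and HNRNPDL (0.60, SE 0.16) rose, and none fell. TRA2A had 166 and 137 CPM in knockout against 82.2 and 77.4 CPM in wild type (0.94, SE 0.18). With 1 library left out, HNRNPDL kept its call only without the second knockout library. None of 26 cholesterol synthesis genes, 15 iron handling genes and 25 apoptosis regulators passed the edgeR test, where 6, 5 and 6 had an unadjusted p under 0.05. DESeq2 called 0 of the 17, 14 and 17 for which it gave an adjusted p.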
